A study of Homo sapiens with 12 samples.

Results

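The long arm of chromosome 21, 21q, carried 1159 of the 79473 KDM2B peaks listed in 7 human leukaemia cell lines. A peak was a member when its midpoint lay beyond position 13200000 of chromosome 21 in hg19, the end of the short arm. The arm was selected on a measured value, the high share of peaks that the line REH has there, so the numbers and shares of peaks on 21q are given as a description, with no test. Binding of KDM2B was mapped by chromatin immunoprecipitation followed by sequencing (ChIP-seq) with a Millipore antibody, 1 library per line, in cells kept in IMDM medium with 10% serum. The study lists 12 libraries, 7 of KDM2B and 5 of input, and the input libraries were not analysed here. K562 is a myeloid line from the blast crisis of chronic leukaemia, with a BCR-ABL1 fusion. Those of acute lymphoblastic leukaemia of B-cell precursors (B-ALL) are REH, with the ETV6-RUNX1 fusion, and SUP-B15, with BCR-ABL1. The lines of T-cell acute lymphoblastic leukaemia (T-ALL) are DND41, HPB-ALL, JURKAT and SIL-ALL. Lineages and fusions are background knowledge of the named lines, and no line has a replicate, so a property of a line cannot be told apart from a property of its library. How deeply each library was sequenced is unknown.

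KDM2B is a histone demethylase of the JmjC family. Its CXXC zinc finger binds DNA rich in unmethylated CpG dinucleotides, most of which lies in CpG islands at gene starts, and there it recruits a variant Polycomb repressive complex that marks histone H2A with ubiquitin. In blood, KDM2B is known for its part in the self-renewal of stem cells and of leukaemic cells. The arm 21q runs from a gene-poor part near the centromere, where 21q21.3 holds the amyloid precursor gene APP, to gene-dense bands near the telomere. Band 21q22.11 holds the interferon receptor genes IFNAR1 and IFNAR2 and the neural factor genes OLIG1 and OLIG2. Band 21q22.12 holds RUNX1, a master transcription factor of blood cells. Band 21q22.13 holds the kinase gene DYRK1A, 21q22.2 the ETS factor genes ERG and ETS2, and 21q22.3 the integrin gene ITGB2 and the genes ICOSLG, AIRE and DNMT3L. No gene annotation or sequence of hg19 was used here, so peaks were not assigned to genes and these names are background on a band.

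REH had more KDM2B peaks on 21q than any other line, although its list was among the shorter ones. The arm held 104 peaks in K562, 212 in REH, 111 in SUP-B15, 185 in DND41, 185 in SIL-ALL, 165 in HPB-ALL and 197 in JURKAT. The lists as a whole had 5942, 8146, 7533, 14944, 15304, 12765 and 14839 peaks in the same order. The share of the list on 21q was 2.60% in REH (Wilson 95% interval 2.28 to 2.97%). It was 1.75% in K562 (1.45 to 2.12%) and 1.47% in SUP-B15 (1.23 to 1.77%). The T-ALL lines lay between 1.21% in SIL-ALL and 1.33% in JURKAT. REH stood at 1.99 times the median share of the other lines. These intervals, like all intervals of shares given here, cover counting error only. Of 41 arms with a median of at least 20 peaks per list, 21q had the highest such ratio in REH, followed by 17p with 1.42. The same ratio for 21q was 1.34 in K562, which placed the arm at rank 7, and 0.863 in SIL-ALL, where it was at rank 38.

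**Figure D1:**
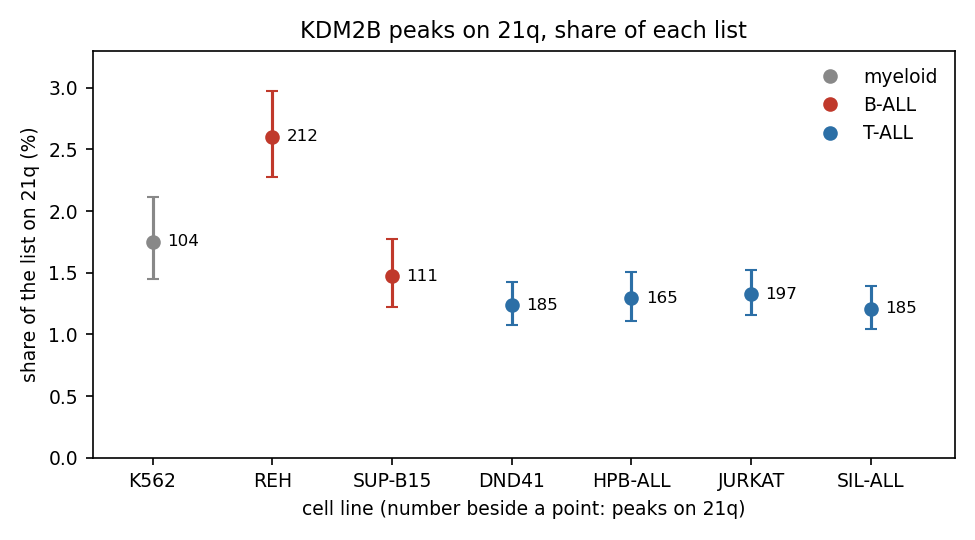
Share of each line's peak list that lies on 21q, in percent, with Wilson 95% intervals; colours mark the lineage and the number beside a point is the count of peaks. REH, by whose share the arm was chosen, lies at 2.60% with 212 peaks, and the other lines lie between 1.21% and 1.75%.

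The arm held more peaks per Mb than all arms together in every list, but in SIL-ALL only 5.47 against 5.12. Over the 33.8 Mb of 21q outside the centromere there were 6.27 peaks per Mb in REH, against 2.72 over all arms of the same list. In K562 the values were 3.07 on 21q and 1.99 over all arms, and in SUP-B15 3.28 and 2.52. The T-ALL lines had 4.88 to 5.82 peaks per Mb on 21q, against 4.27 to 5.12 over all arms. Among 48 arms 21q ranked between 7 (REH) and 16 (DND41, HPB-ALL and SIL-ALL) by this density. The 48 arms include 13p, 14p, 15p and 22p, where no list had a peak, which lowers the values over all arms. The peaks covered 80.5 kb of the arm in REH, 76.5 kb in K562 and 52.0 to 61.5 kb in the other 5 lines. That was 3.84% of all bases covered by REH peaks, 1.77% in K562 and 1.21 to 1.54% in the others. Peaks were often close neighbours: 69 of the REH peaks started within 500 bp of the end of the peak before, as did 87 in DND41 and 23 in K562. With such neighbours joined, REH had 143 peaks on the arm and the others 81 to 118, and the share of the list was 2.38% in REH against 1.18 to 1.78%.

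The first peak of 21q lay far from the boundary of the rule in all lists. In REH it was at 17102263 to 17102552 in 21q21.1, with a score of 74.6. K562 and SUP-B15 also began with a peak at this site, with scores of 56.9 and 105, and the T-ALL lists began between 15352215 in DND41 and 16436585 in HPB-ALL. Scores are those the authors gave each peak, in no stated unit, and are used here to rank peaks within a list. Beyond the boundary, on the short arm, REH had 5 peaks, the nearest at 11123916 to 11124245 with a score of 58.1, JURKAT had 2, K562 none and the other lists 1 each.

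The strongest REH peaks were concentrated on 21q still more than the list as a whole. Among the 500 top-scored peaks of each list, 32 lay on 21q in REH, a share of 6.40% (Wilson 95% interval 4.57 to 8.90%), against 2 in HPB-ALL (0.400%) to 10 in K562. Among the top 1000, REH had 52 and the others 9 to 18. Among the top 2000, REH had 74 (3.70%) and the others 22 to 39. With as many top-scored peaks as the shortest list holds, 5942, the share was 2.73% in REH and 1.19 to 1.75% in the others. The REH share thus fell from 6.40% for the top 500 to 2.60% for the whole list. Seen from the arm, 43 of the 212 REH peaks belonged to the top 10% of their list by score, 20.3% (interval 15.4 to 26.2%). In the other lines this share was 7.27% in HPB-ALL to 12.4% in SIL-ALL.

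**Figure D2:**
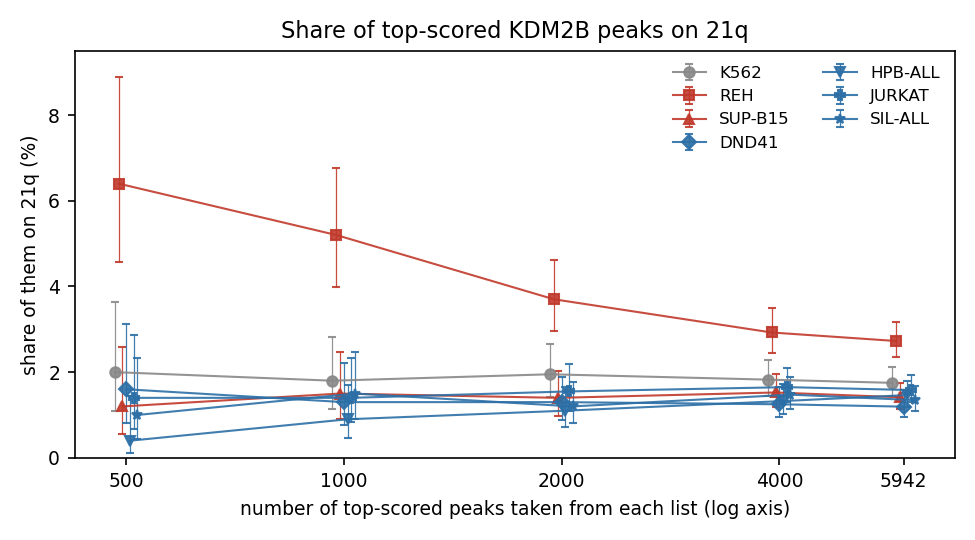
Share of the top-scored peaks that lie on 21q, in percent with Wilson 95% intervals, against the number of peaks taken from each list on a log axis, 1 curve per line. The REH curve starts at 6.40% for 500 peaks and ends at 2.73% for 5942, and the other lines lie below it throughout.

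Of the 10 strongest REH peaks of the arm, all lay in 21q22.3. The first, at 45661776 to 45663841, was 2066 bp wide, had a score of 1029 and ranked 7 in the whole REH list. The next were at 43933583 to 43934845 (score 544, rank 32), at 45563046 to 45564325 (543, rank 33), at 44818942 to 44820241 (492, rank 41) and at 45719028 to 45720432 (492, rank 42). K562 also had its strongest peak in 21q22.3, at 44845613 to 44847035, but it ranked only 169 in its list. In 4 lines the strongest peaks of the arm lay elsewhere, at 1 site of 21q22.12, the band of RUNX1. They had scores of 2407 in DND41 (rank 11), 2410 in HPB-ALL (rank 14), 2338 in SIL-ALL (rank 28) and 669 in SUP-B15 (rank 48). JURKAT had its strongest peak in 21q21.3, at 28216323 to 28217661, with a score of 816 and rank 92. No other line had a peak there, and the next stretch, 28217682 to 28218331, was a region of JURKAT alone too (score 373). Band 21q21.3 holds ADAMTS1 and ADAMTS5, genes of secreted proteases, beside APP.

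Along the arm the REH peaks gathered in a stretch of 21q22.3. In bins of 2 Mb, the bin from 44 to 46 Mb held 79 peaks in REH, 51 in SUP-B15, 15 in K562, 38 in DND41, 39 in SIL-ALL, 26 in HPB-ALL and 40 in JURKAT. This was 37.3% of the 21q peaks in REH (Wilson 95% interval 31.0 to 43.9%) and 45.9% in SUP-B15 (37.0 to 55.2%). The other 5 lines had 14.4% (K562) to 21.1% (SIL-ALL) there. Per 10000 peaks of the list, the bin held 97.0 peaks in REH, 67.7 in SUP-B15 and 20.4 to 27.0 in the others. The next bin, from 46 to 48 Mb, was the fullest in K562, with 45 of its 104 peaks (43.3%, interval 34.2 to 52.9%), and held 48 in REH and 16 in SUP-B15. In the T-ALL lines that bin had 24 peaks in JURKAT to 51 in DND41. The bins were chosen for description after the values were seen.

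**Figure D3:**
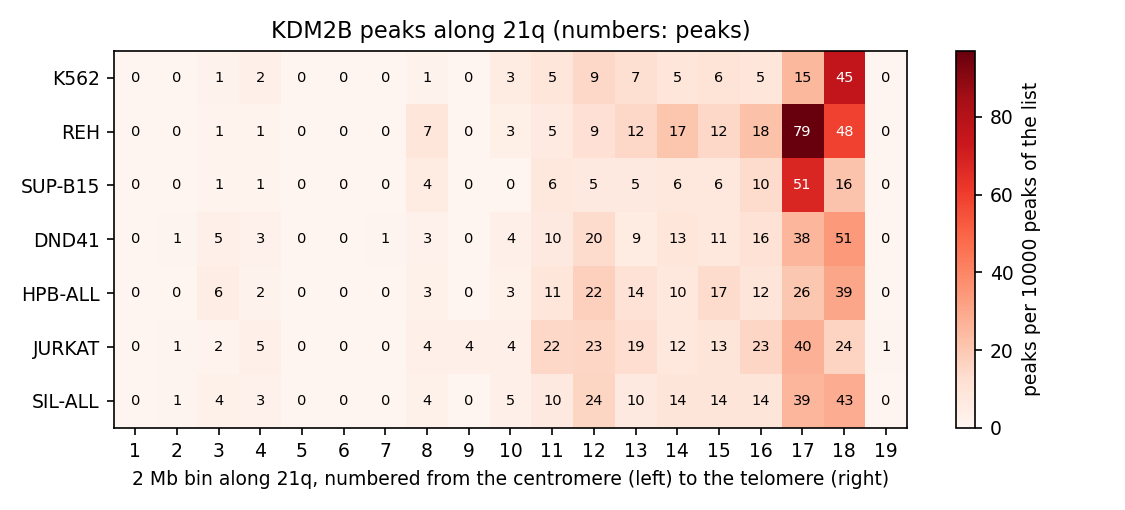
KDM2B peaks in 19 bins of 2 Mb along 21q, 1 row per line, with the count in each cell and the shade giving peaks per 10000 peaks of the list; the outermost bins are cut by the ends of the arm. The darkest cells are bin 17, from 44 to 46 Mb, in REH (79 peaks) and SUP-B15 (51) and bin 18, from 46 to 48 Mb, in K562 (45).

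Outside that bin REH was closer to the other lines. Without the bin from 44 to 46 Mb, the arm held 1.63% of the REH list (133 peaks; Wilson 95% interval 1.38 to 1.93%). The corresponding share rested on 89 peaks in K562 (interval 1.22 to 1.84%) and was 1.09% in HPB-ALL, 1.06% in JURKAT, 0.984% in DND41, 0.954% in SIL-ALL and 0.796% in SUP-B15. Relative to the median of the other lines, REH was above it in 8 bins and below it in 5, and the median was 0 in the remaining 6. REH was the highest of the lines in 6 of the 19 bins. Its ratio to the median was 3.81 from 44 to 46 Mb, 2.53 from 38 to 40 Mb, 2.20 from 42 to 44 Mb and 2.01 from 46 to 48 Mb. It was 3.46 from 26 to 28 Mb, on 7 REH peaks. From 32 to 34 Mb and from 34 to 36 Mb it was 0.749 and 0.721, so the excess of REH did not extend over the whole arm. In 3 bins, from 13.2 to 14 Mb and from 20 to 24 Mb, no list had a peak.

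In windows of 250 kb the fullest stretch of REH was from 45.5 to 45.75 Mb, a window chosen after its counts were seen. It held 30 REH peaks and 19 SUP-B15 peaks, against 3 in K562, 3 in DND41, 13 in SIL-ALL, 8 in HPB-ALL and 8 in JURKAT. The window thus took 14.2% of the 21q peaks of REH and 17.1% of those of SUP-B15, and 1.62 to 7.03% in the other lines. Its peaks covered 16470 bp in REH and 8565 bp in SUP-B15, and 897 to 3222 bp in the others. Merged over the lists they formed 32 regions, of which 27 had a REH peak, 13 a SUP-B15 peak, 10 a peak of both and 12 a peak of REH alone. The highest score in the window was 1029 in REH, 471.7 in K562, 362 in JURKAT, 325 in DND41, 324 in HPB-ALL, 238 in SIL-ALL and 206 in SUP-B15. Within their own lists the window's peaks had a median score percentile of 62.3 in REH and 57.8 in SUP-B15. This median was higher than in REH in JURKAT (72.8), HPB-ALL (64.4) and DND41 (63.4), and lower in K562 (43.98) and SIL-ALL (35.6). A window full in all lines was that from 46.25 to 46.5 Mb, with 15 peaks in K562, 21 in REH, 12 in SUP-B15, 17 in DND41, 11 in SIL-ALL, 14 in HPB-ALL and 7 in JURKAT.

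By band, the B-ALL lines and K562 had a larger part of their 21q peaks in the terminal band 21q22.3 than the T-ALL lines. The share was 67.9% in REH (144 peaks), 69.4% in SUP-B15 (77) and 62.5% in K562 (65). It was 54.6% in DND41 (101), 51.9% in SIL-ALL (96), 46.1% in HPB-ALL (76) and 42.6% in JURKAT (84), so the lineages did not overlap. T-ALL lines had a mean of 48.8 ± 5.43% (SD, n = 4), against 66.6 ± 3.62% (SD, n = 3), a difference of -17.8 percentage points. Exact permutation over the 35 ways to split the lines, two-sided, had p = 0.0286, which no 4 against 3 lines can undercut, and the Benjamini-Hochberg adjusted value over the 5 tests made on the arm was 0.0781 in this exact permutation scheme. Since the choice of the arm rests on REH, the difference was also taken without it: it was then -17.1 points (exact permutation p = 0.0667, the smallest that 6 lines allow).

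The T-ALL lines had a larger part of their 21q peaks in 21q22.11, the band of the interferon receptor genes. It held 29 peaks in DND41 (15.7% of the 21q peaks), 33 in SIL-ALL (17.8%), 30 in HPB-ALL (18.2%) and 43 in JURKAT (21.8%). In K562 it held 13 (12.5%), in REH 13 (6.13%) and in SUP-B15 11 (9.91%). By share of the 21q peaks the lineages did not overlap here either, but by share of the whole list they did. Per 10000 peaks of the list, the band held 21.9 in K562, above DND41 (19.4) and SIL-ALL (21.6). This band was singled out after its values were seen and was not tested. REH, with the most peaks on the arm, thus had no more in this band than K562, whose list is shorter. In 21q22.12, the RUNX1 band, JURKAT had 21 peaks, HPB-ALL 17, REH 12, DND41 and SIL-ALL 10 each, K562 8 and SUP-B15 5. In 21q22.13, the band of DYRK1A, REH had 16 and the others 5 to 13. In 21q22.2, which holds ERG and ETS2, the counts ran from 6 in K562 and SUP-B15 to 18 in HPB-ALL and JURKAT, with 15 in REH. The bands 21q11.2, 21q21.1 and 21q21.2 together had 3 peaks in K562, 2 in each B-ALL line and 8 to 10 in the T-ALL lines.

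Peaks on 21q were wider than those on the other arms of the same list in 6 of 7 lines. The median width on 21q and elsewhere was 604.5 and 552 bp in K562, 301.5 and 212 bp in REH and 400 and 350 bp in SUP-B15. It was 209 and 213 bp in DND41, 277 and 252 bp in HPB-ALL, 260 and 240 bp in JURKAT and 240 and 223 bp in SIL-ALL. The mean difference, 21q minus other arms, was 35.7 ± 30.7 bp (SD, n = 7 lines), with an exact sign-flip permutation p of 0.03125, two-sided, and a Benjamini-Hochberg adjusted value of 0.0781 over the 5 tests. The largest difference was that of REH, 89.5 bp, and without REH the mean was 26.8 bp (exact permutation p = 0.0625). With equal lists of top-scored peaks the difference was 23.1 bp (exact permutation p = 0.328).

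Scores on 21q were on average slightly above those of the other arms, by less than the test's threshold. The median within-list score percentile on 21q was 56.2 in REH, 57.1 in JURKAT, 54.9 in HPB-ALL, 54.1 in SIL-ALL, 52.4 in SUP-B15, 51.9 in DND41 and 47.4 in K562, where about 50 is the median of each list. The difference from the other arms was 3.50 ± 3.32 percentile points (SD, n = 7), above 0 in 6 of 7 lines (exact sign-flip permutation p = 0.0625, two-sided; adjusted 0.0781). By the median REH did not stand apart, since JURKAT was higher, although by the share of peaks in the top 10% it did. Without REH the difference was 3.02 points (exact permutation p = 0.125). With peaks within 500 bp joined it was 6.10 points (exact permutation p = 0.0469), and with equal lists 0.197 points (exact permutation p = 0.938).

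Peaks of 21q overlapped peaks of other lines about as often as peaks elsewhere did, but not in each line. In REH 63.2% of the 21q peaks overlapped a peak of at least 1 other line, against 71.0% on its other arms, a difference of -7.80 points and the lowest of the 7 lines. K562 had 71.2% on 21q and 74.5% elsewhere, JURKAT 78.7% and 80.2%, and SUP-B15 79.3% and 79.8%. The order was the opposite in DND41 (85.4% and 81.7%), HPB-ALL (87.3% and 81.7%) and SIL-ALL (82.7% and 77.0%). The mean difference was 0.248 ± 5.02 points (SD, n = 7; exact sign-flip permutation p = 0.891, two-sided; adjusted 0.891), and 3 of 7 lines were above 0. Overlap is mutual, so the values of the lines are not fully independent. How many REH peaks find a partner also depends on the REH excess that chose the arm, so this test is not independent of the choice. Without REH the mean difference was -1.52 points (exact permutation p = 0.719).

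Merged over the 7 lists, the peaks of the arm formed 425 regions out of 29071 in the genome. A line counts in a region if at least 1 of its peaks lies in it. REH had a peak in 176 of the 425 (41.4%), where its background over all arms was 22.2%, and this contrast is that which chose the arm. There were 172 regions with a peak of 2 or more lines (40.5%, background 41.8%) and 16 with a peak of all 7 lines (3.76%, background 2.44%). The latter count was 7 to 10 with shorter lists or 50% reciprocal overlap. A peak of every line but REH was in 5 regions (1.18%, background 1.26%), and a peak of every line but SUP-B15 in 9 (2.12%, background 0.623%). These counts and that of all 7 lines depend on REH peaks, whose excess chose the arm. Nothing is therefore read from their distance to the background. REH alone had 78 regions, 18.4% of those on the arm, where the background of regions of REH alone was 8.18%, a contrast that the choice of the arm also used; with a common score floor there were 22, and with 50% reciprocal overlap 124. For the other lines alone the counts were 30 in K562 (7.06%, background 5.21%), 23 in SUP-B15 (5.41%, background 5.23%), 27 in DND41 (6.35%, background 9.4%), 32 in SIL-ALL (7.53%, background 12.1%), 21 in HPB-ALL (4.94%, background 7.99%) and 42 in JURKAT (9.88%, background 10.1%). Of the regions that REH had on 21q, 44.3% were its own alone, against 36.8% over all arms. This contrast too draws on the REH excess that chose the arm, so nothing is read from it. The regions of REH alone also count in the 425 from which the shares of the other lines are taken. Of these 78 regions, 62 (79.5%) lay in 21q22.3, as did 264 of all 425 regions (62.1%). Between 44 and 46 Mb there were 31 of the 78 (39.7%) and 124 of the 425 (29.2%). Counted as peaks rather than regions, 37.3% of the 212 REH peaks of the arm lay between 44 and 46 Mb and 67.9% in 21q22.3.

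**Figure D4:**
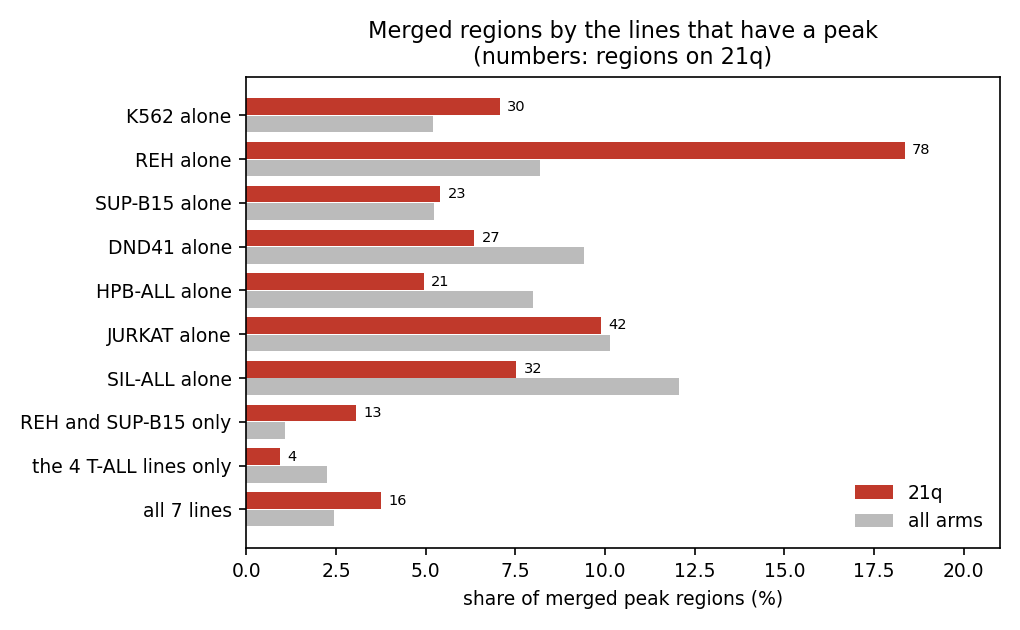
Share of merged peak regions by the set of lines with a peak, in percent, on 21q (red, with the number of regions) and on all arms (grey). Regions of REH alone make up 18.4% on 21q and 8.18% on all arms, and those of REH and SUP-B15 only 3.06% and 1.07%.

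REH and SUP-B15 and no other line had a peak in 13 regions, 3.06% of those on 21q against a background of 1.07%, and 6 with a common score floor. The excess of REH regions that chose the arm enters this count, so nothing is read from its distance to the background. By phi, a coefficient of having a peak in the same regions, REH and SUP-B15 stood at 0.160 on 21q and at 0.206 over all arms. Of these 13 regions, 12 (92.3%) lay in 21q22.3 and 11 (84.6%) between 44 and 46 Mb, beside 62.1% and 29.2% of all regions of the arm. The first by mean score percentile, at 44818331 to 44820241, scored 492 for REH and 289 for SUP-B15. The others named by the rule were at 45559286 to 45560842, with scores of 253 and 152, and at 45563046 to 45565121, with 543 and 98.0. In each of them the REH peak stood at a higher percentile of its list than the SUP-B15 peak. Not confined to the pair, REH and SUP-B15 had 50 regions in common, 56.8% of the SUP-B15 regions and 28.4% of the REH regions. No region of 21q was common to K562 and both B-ALL lines while absent from the T-ALL lines (0 regions, background 0.193%).

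Sites of the T-ALL lines only must lack a REH peak, and the excess of REH peaks chose the arm. That excess also enters the total of regions on the arm, so nothing is read from the distance of their count to the background. In 4 regions the 4 T-ALL lines and no other line had a peak, 0.941% against a background of 2.25%, and 2 of them lay in 21q22.11. The first, at 34696549 to 34697769 in that band, scored 345 in SIL-ALL, 275 in HPB-ALL, 124 in JURKAT and 77.5 in DND41. The next were at 34960823 to 34961558 in 21q22.11 (mean percentile 60.2) and at 40555657 to 40556015 in 21q22.2 (mean percentile 38.7). All 3 lost peaks of some lines with equal lists, where the first kept 3 lines, the second 2 and the last none. Among pairs of T-ALL lines, DND41 and SIL-ALL had 72 regions in common, 58.1% of those of DND41 and 52.6% of those of SIL-ALL.

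The similarity of lines on 21q, as the phi coefficient of having a peak or not over the 425 regions, was 0.228 on average for pairs of the same side (T-ALL, or the 3 other lines) and 0.133 for pairs of different sides. The difference of 0.0947 had an exact permutation p of 0.0571, one-sided, and an adjusted value of 0.0781. The 425 regions include the 78 of REH alone, where all other lines lack a peak. The choice of the arm used the excess of these regions, so phi on 21q and this test are not independent of it. The highest coefficients were those of DND41 with SIL-ALL (0.355) and with HPB-ALL (0.345), and the lowest that of REH with JURKAT (-0.0224). K562 with REH had 0.0371 on 21q and 0.143 over all arms. K562 with DND41 had 0.297 on 21q and 0.126 over all arms. On this arm K562 was nearer to each T-ALL line (0.187 with JURKAT to 0.297) than to SUP-B15 (0.154) or REH. The test nevertheless grouped K562 with SUP-B15 and REH. This comparison of pairs was not tested. Without K562 the difference between sides was 0.183 (exact permutation p = 0.0667, the smallest 6 lines allow). Without REH, on which the choice of the arm rests, it was 0.0835 (exact permutation p = 0.133).

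Among the 16 regions where each of the 7 lines had a peak, 10 lay in 21q22.3, 3 in 21q22.2 and 1 each in 21q21.1, 21q22.11 and 21q22.12. The share in 21q22.3, 62.5%, was close to the 62.1% of all 425 regions. The highest by mean score percentile, 97.2, was at 46493952 to 46495926 in 21q22.3. Its scores were 468 in K562, 194 in REH, 330 in SUP-B15, 594 in DND41, 1535 in SIL-ALL, 684 in HPB-ALL and 690 in JURKAT, and it stood at percentile 95.5 or above in each list. The others named by the rule were at 43430362 to 43431814 in 21q22.3 (mean percentile 92.2), 34851098 to 34852991 in 21q22.11 (91.4), 40684891 to 40686648 in 21q22.2 (90.8) and 46359567 to 46360874 in 21q22.3 (88.3). Over the 16 regions the median percentile was 91.8 in REH and 82.0 in K562, and 87.7 to 93.6 in the other lines. Over the 693 such regions of the other arms it was 75.2 in REH, 74.0 in K562 and 81.2 in SUP-B15, and 89.6 to 93.1 in the T-ALL lines.

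**Figure D5:**
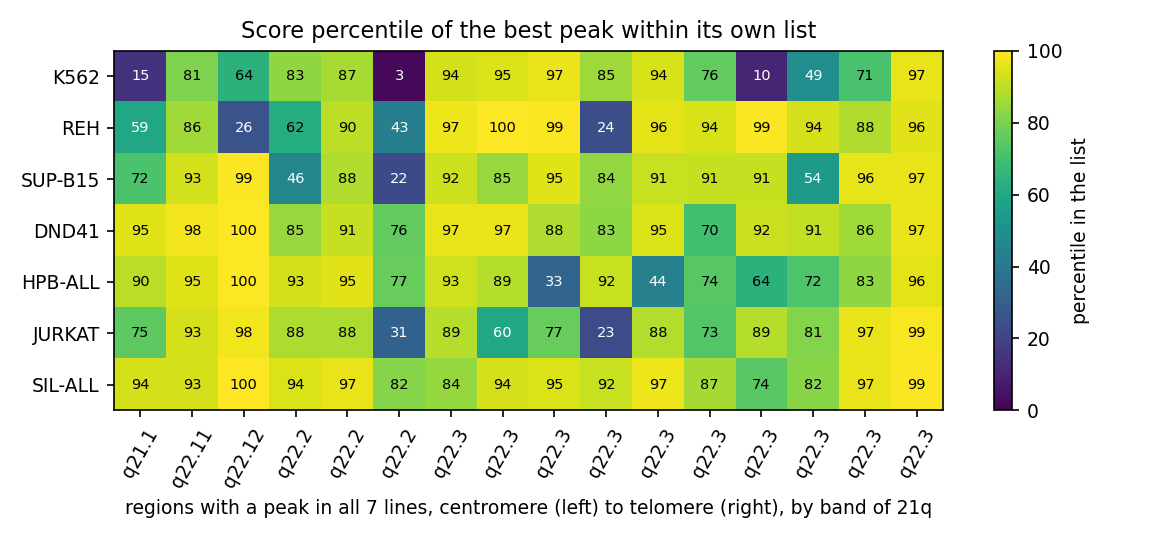
Score percentile, within its own list, of the best peak of each line in the 16 regions of 21q with a peak in all 7 lines, ordered from centromere to telomere and named by band. In the 21q22.12 region REH is at percentile 25.5 and K562 at 64.3, and the other lines are at 97.8 or above.

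The region of 21q22.12, at 36260052 to 36262827, was singled out after its values were seen. It lies in the band of RUNX1, and whether it overlaps that gene was not determined. Its scores were 2407 in DND41, 2410 in HPB-ALL, 2338 in SIL-ALL, 669 in SUP-B15 and 466 in JURKAT, but 113 in K562 and 56.1 in REH. REH, which had the most peaks on the arm, stood at percentile 25.5 there, whereas DND41, HPB-ALL and SIL-ALL stood at 99.8 or above. At 45719028 to 45720432 in 21q22.3, also singled out afterwards, REH was the highest of the lines, at percentile 99.5 with a score of 492, and K562 the lowest, at 10.3 with 54.3. There the other lines had percentiles of 64.4 in HPB-ALL to 91.8 in DND41.

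Among regions of REH alone, the first by score was at 46143159 to 46143794 in 21q22.3, with a score of 227 (percentile 97.0). The second lay in 21q22.13, at 38378845 to 38379453, with 183. The next were in 21q22.3, at 45565132 to 45565710 (152), 43689249 to 43689852 (136) and 44738921 to 44739491 (125). All 5 were between 571 and 636 bp long, above the median REH peak of the arm. K562 had its own sites at 46824347 to 46826224 (352) and 47401621 to 47402904 (243), both in 21q22.3. SUP-B15 had them at 46409377 to 46410096 (138) and 46385244 to 46385924 (131), in the same band. Of the T-ALL lines besides JURKAT, SIL-ALL had its first at 15826488 to 15827025 in 21q11.2 (score 795, percentile 95.8) and another at 46962651 to 46963050 (293). HPB-ALL had sites at 40293821 to 40294323 in 21q22.2 (388) and 44834520 to 44834968 (243). The DND41 sites, at 47648517 to 47648725 (112) and 47744058 to 47744279 (106), were at percentiles 58.7 and 55.6, the lowest among the sites named for a line alone.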

How the data were processed

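KDM2B ChIP-seq was done in 7 leukaemia cell lines, and the deposited data are 1 peak list per line with chromosome, start, end, name and score. FastQC 0.10.1, Bowtie 1.1.1 and the build hg19 are named per the submitters' processing notes. Peak names point to MACS. For its version, the control libraries and the threshold, nothing is given in the sources used here. The score is the authors' deposited value per peak, with no unit stated, and served to rank or filter peaks. Start and end are the authors' deposited positions, given here counted from 1. The lowest score differed between lists (50.0 to 80.0), and sequencing depth is unknown.

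Peaks were put on arms and bands by midpoint with the hg19 cytoband table of circlize 0.4.16. Regions were made by merging peaks of any lists that overlap by 1 bp or more. Units of every test were lines: exact sign-flip permutation over 7 lines, or exact permutation over the 35 splits into 4 T-ALL and 3 other lines. As each line is 1 library, p-values reflect differences among lines and among libraries alike. The threshold was 0.05, applied to p-values before adjustment. Named regions were the highest by mean score percentile: 5 of all lines, 3 of T-ALL lines and 3 of both B-ALL lines. For both B-ALL lines with K562, 2 were sought and none found. Of REH alone 5 were named, and of each other line alone 2. Outside this rule, single peaks were named as the strongest of a list on the arm or the nearest to its boundary. Any further site is said to be chosen afterwards. The members, lists of lines and tests were chosen with earlier results of these data known. Alternatives were equal lists, a common score floor, each list's median score, joining within 500 bp, 50% reciprocal overlap, bins shifted by 1 Mb, Giemsa-light bands, leaving out each line, and B-ALL as the only other lines beside T-ALL. The tests of width, score percentile and phi were tested on simulated data, and those of sharing and the terminal band were not. The reference tables were of another build, so no sequence is shown and no peak was assigned to a gene. Python 3.11.15, numpy 2.4.6, pandas 2.3.3, scipy 1.17.1 and matplotlib 3.10.9 were used.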

Additional observations from a re-analysis of the deposited data

Results flagged for a closer look

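Over the 7 lines, 10 values per line on 21q were examined for a line far from the rest, and 3 were found, all of REH. By chance about 1 in 20 such values is flagged, but this rate does not apply to an arm chosen by its REH share. The share of the list on 21q was 2.60% in REH, next to 1.75% in K562 and down to 1.21% in SIL-ALL, and this is the value that chose the arm. The share of all covered bases that lies on 21q was 3.84% in REH, next to 1.77% in K562 and down to 1.21% in SIL-ALL. The share of 21q peaks in the top 10% of the list by score was 20.3% in REH, next to 12.4% in SIL-ALL and down to 7.27% in HPB-ALL. These values share the REH peaks of the arm and are not independent of each other. Copy number and the input libraries were not used here.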

How the results depend on the processing

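Of 122 alternative values, those of named regions aside, 5 reversed, 16 moved, 7 newly passed the threshold, 16 no longer passed it and the other 78 changed in none of these ways. Passing is meant here for p-values before adjustment. After adjustment none of the 5 tests passed with the lists as given. The REH share of peaks on 21q was 3.22% with a common score floor and 1.63% without the bin from 44 to 46 Mb, an alternative chosen after the data were seen. The width difference was 23.1 bp with equal lists and 43.1 bp with each list's median score (exact permutation p = 0.328 and 0.25). The score percentile difference passed the threshold with a common floor (5.73 points), joining within 500 bp (6.10) and Giemsa-light bands (4.74). Sharing, near 0, reversed with joining (-0.512 points) and Giemsa-light bands (-1.14). The phi difference passed with a common floor (0.0914), each list's median score (0.133) and joining (0.0994). The terminal band difference was -19.9 points for T-ALL against B-ALL lines, where 6 lines cannot pass. Regions of all 7 lines numbered 10 with equal lists, 9 with a common floor, 7 with each list's median score and 8 with 50% reciprocal overlap. Regions of REH alone numbered 22, 39 and 124 with the last 3 of these, and those of REH and SUP-B15 alone 6 with a common floor. Shorter lists hold fewer peaks by construction; other causes were not tested.

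With each line left out, the difference ranged from 26.8 to 42.3 bp for width and from 2.88 to 4.53 points for score percentile. The score percentile passed the threshold only without K562 (exact permutation p = 0.03125), and without REH the exact permutation p was 0.125. The range was from -1.52 to 1.59 points for sharing, from -19.9 to -15.7 points for the terminal band and from 0.0488 to 0.183 for phi. Width kept its side of the threshold only without DND41. Without a line the splits cannot pass the threshold. Of 28 named regions, 23 kept their lines with equal lists, 26 with a common floor, 25 with each list's median score and 28 with joining. The tests of 21q against other arms compare values within each list. No paired analysis was possible between lines because they have no replicates that could be matched.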
